A study of Mus musculus with 12 samples.

Results

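A set of 9 genes of mucosal secretion was followed through the conversion of mouse hepatocytes toward bile duct cells. The set holds the mucins Muc1, Muc4, Muc13 and Muc20, the trefoil factors Tff2 and Tff3, the scavenger receptor cysteine-rich glycoprotein Dmbt1, the polymeric immunoglobulin receptor Pigr and the mucin-folding disulfide isomerase Agr2. Members were taken by gene symbol, and all 9 were found among the 53599 genes of the count table. They were picked by function with their levels in the 4 groups already known, so their levels and fold changes are a description and support no claim about the set. Of the 9, 8 passed the filter on low counts; Agr2 did not.

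RNA was sequenced from 12 libraries of sorted liver cells, 3 in each of 4 groups. All mice were wild type by label and received AAV8-TBG-Cre, a virus whose hepatocyte promoter drives Cre, so that EGFP marks hepatocytes and the cells derived from them; the reporter allele is not named in the labels. All mice, those of the biliary group included, were then fed 0.1% DDC, a porphyrinogenic compound that injures bile ducts, for 8 weeks, starting 1 week after the virus. EGFP+ Cd24- Epcam- cells are the early group, EGFP+ Cd24+ Epcam- cells the intermediate group, EGFP+ Cd24+ Epcam+ cells the full group, and EGFP- Epcam+ cells the resident biliary epithelial cells (BEC). No group from an uninjured liver was included, and the labels give neither age nor whether the replicates came from different mice, so the errors measure the spread between these samples. Totals ranged from 15112893 to 19731887 counts per library. Levels are in CPM, counts scaled to library size with TMM factors, and 3 counts in a library, called the floor, correspond to 0.128 to 0.273 CPM. No fold is given where the means of both groups lie under it.

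Mucins are glycoproteins whose serine- and threonine-rich stretches carry dense O-linked sugars. Membrane-bound members such as Muc1, Muc4, Muc13 and Muc20 coat the apical surface of epithelia, and trefoil factors are small secreted peptides that act with mucus in protecting and repairing that surface. Pigr carries polymeric IgA from the basal to the apical side of a cell; in rodents hepatocytes do this and release IgA into bile. Dmbt1 is a secreted glycoprotein of epithelial defence that is also linked to duct differentiation.

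Promoter sequences (250 bases before to 50 bases after the gene start, RefSeq, build GRCm38.p6) were at hand for 6 of the 9 genes: Muc1, Muc4, Muc13, Muc20, Pigr and Agr2. Those of the 3 mucins with their highest level in BEC and of Pigr, which had its highest level in early cells, are shown because these genes ran in opposite directions. They are written 5′ to 3′ along the gene, with capitals for words searched on both strands.
Muc1 (chr3:89228806-89229105, plus strand): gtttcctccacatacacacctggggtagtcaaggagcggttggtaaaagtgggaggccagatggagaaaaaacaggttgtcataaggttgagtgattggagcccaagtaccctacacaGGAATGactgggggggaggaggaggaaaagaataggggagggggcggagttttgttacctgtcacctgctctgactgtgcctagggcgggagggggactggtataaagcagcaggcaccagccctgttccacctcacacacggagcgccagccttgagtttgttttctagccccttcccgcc
Muc4 (chr16:32735636-32735935, plus strand): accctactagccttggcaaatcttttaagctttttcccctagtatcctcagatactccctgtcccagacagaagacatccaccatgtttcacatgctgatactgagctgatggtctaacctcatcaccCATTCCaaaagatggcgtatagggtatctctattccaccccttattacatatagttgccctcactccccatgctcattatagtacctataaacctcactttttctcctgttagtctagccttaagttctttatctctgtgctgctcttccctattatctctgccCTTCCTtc
Muc20 (chr16:32797386-32797685, minus strand): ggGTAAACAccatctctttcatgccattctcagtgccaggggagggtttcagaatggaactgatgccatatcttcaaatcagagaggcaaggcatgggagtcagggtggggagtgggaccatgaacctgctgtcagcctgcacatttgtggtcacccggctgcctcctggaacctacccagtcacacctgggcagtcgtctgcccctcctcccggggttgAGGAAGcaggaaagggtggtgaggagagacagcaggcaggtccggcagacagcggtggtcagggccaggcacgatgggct
Pigr (chr1:130826434-130826733, plus strand): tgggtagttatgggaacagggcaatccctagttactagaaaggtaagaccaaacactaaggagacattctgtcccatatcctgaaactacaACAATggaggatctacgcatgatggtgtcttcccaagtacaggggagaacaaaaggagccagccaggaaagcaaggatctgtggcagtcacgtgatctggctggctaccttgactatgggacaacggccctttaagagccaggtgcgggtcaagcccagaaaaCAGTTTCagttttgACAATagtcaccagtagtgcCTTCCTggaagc
The 9 words searched were GGAATG (TEAD), ACAAT (SOX core), GTTAAT (part of an HNF1 site), TGTTTAC (FOX), GTGGGAA (RBPJ), GGGACTT (part of an NF-kB site), GAAACTG (part of an interferon response element), AACCGG (part of a GRHL site) and AGGAAG (ETS). Positions count from the gene start at 1, with negative numbers before it. The TEAD word stood at position -132 in Muc1 and, on the other strand, at -122 in Muc4, and 14.7% of 32851 promoters of this length hold it. Muc20 held the FOX word on the other strand at -248, which 3.65% of promoters hold, and the ETS word at -30. The Pigr promoter held the SOX core at -159 and 19 and, on the other strand, the interferon response word at 5 and the ETS word at 39. Muc4 held the ETS word on the other strand at 43. Of all promoters, 31.0% hold the SOX core, 5.95% the interferon response word and 35.4% the ETS word. No word was shared by all 3 of the mucin promoters shown, and such matches describe letters only.

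Muc1, the transmembrane mucin of many ducts, was at 0 counts in all 3 early libraries. Intermediate libraries held 0.880, 0.110 and 0.340 CPM, full libraries 39.4, 24.9 and 20.9 CPM, and BEC libraries 399.7, 266.5 and 281.3 CPM. The 4 groups followed each other without overlap, with each later group above the one before. The mean of Muc1 in intermediate was at least 1.77-fold above early, taking 3 counts per library as the limit for early. Intermediate replicate 2, at 2 counts, lay under that limit, so the bound holds for the mean only. Muc1 then differed by 6.04 (SE 0.43) on the log2 scale between full and intermediate, and by 3.47 (SE 0.28) between BEC and full. BEC stood at least 1259-fold above early. The gap between intermediate and early rests on 22 counts in all, and its call by edgeR was lost when early replicate 1, 2 or 3, intermediate replicate 1 or intermediate replicate 3 was left out (log2 differences from 5.10 to 6.14). 

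**Figure D1:**
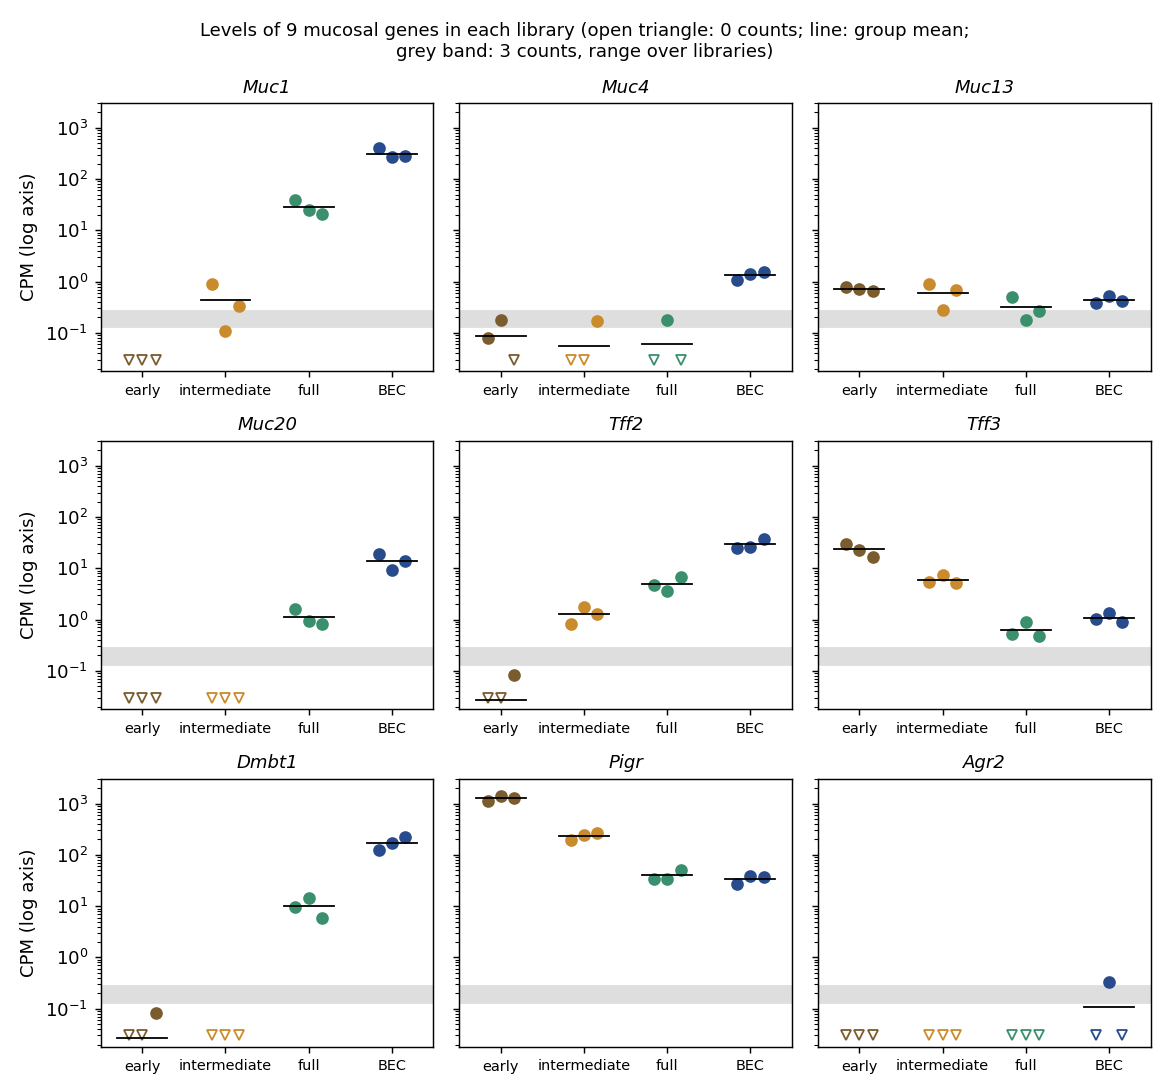
Levels of the 9 genes in each of the 12 libraries, in CPM on a log axis, by group; each point is a library, a line is the group mean, an open triangle is a library with 0 counts and the grey band is the level of 3 counts. Muc1, Muc20, Tff2 and Dmbt1 are highest in BEC and lower in full, Pigr and Tff3 are highest in early, and Agr2 has counts in 1 BEC library only.

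Muc20, a small membrane mucin, was at 0 counts in all 6 early and intermediate libraries. It held 1.62, 0.936 and 0.831 CPM in full and 19.0, 9.23 and 13.7 CPM in BEC. Full stood at least 6.47-fold above intermediate, and BEC differed from full by 3.62 (SE 0.37) on the log2 scale. The gene thus had its first counts in the Epcam+ cells, and the BEC libraries all lay above the full libraries.

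Muc4, a large membrane mucin that binds the receptor ErbB2, had group means under the floor in all 3 groups of EGFP+ cells, with 3 counts in early, 3 in intermediate and 4 in full over the 3 libraries of each. BEC libraries held 1.06, 1.40 and 1.51 CPM, from 85 counts. The fitted difference between BEC and full was 4.35 (SE 0.87) on the log2 scale, against a full level that rests on 4 counts, all in replicate 2. By counts alone the ratio was 22.8, with a 95% exact interval from 8.59 to 85.6 that covers counting error only. Muc4 and Muc20 are neighbours whose gene bodies overlap on opposite strands in RefSeq. The strand setting of the counting is not given in the sources used here, so reads from the shared stretch cannot be assigned to either gene.

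Muc13, a membrane mucin of the gut surface, was low everywhere and was the 1 tested member of 8 that was not called in the F test over the 4 groups, where 75.6% of all genes were called. It held 0.791, 0.728 and 0.647 CPM in early, 0.880, 0.274 and 0.679 in intermediate, 0.511, 0.178 and 0.262 in full, and 0.385, 0.513 and 0.411 in BEC. Early libraries lay above all full and BEC libraries, while the other pairs of groups overlapped. The fitted difference between full and early was -1.16 (SE 0.52) on the log2 scale and passed the threshold only when full replicate 1 was left out (-1.67). With total counts as the scale, BEC against early changed sign, from -0.72 to 0.14.

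The 2 trefoil factors ran in opposite directions. Tff2 had 1 count over the 3 early libraries and 0.817, 1.75 and 1.30 CPM in intermediate. It held 4.77, 3.52 and 6.65 CPM in full and 25.2, 25.9 and 37.7 CPM in BEC. The groups followed each other without overlap, and Tff2 had counts in all 3 intermediate libraries, where Muc20 and Dmbt1 had none. The ratio of intermediate to early was 47.2 by counts, with a 95% exact interval from 8.20 to 1893. Full differed from intermediate by 1.93 (SE 0.32) and BEC from full by 2.57 (SE 0.27) on the log2 scale.

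Tff3, the trefoil factor of intestinal goblet cells, was highest in early, at 30.1, 23.1 and 16.5 CPM. Levels were 5.34, 7.29 and 5.26 CPM in intermediate, 0.511, 0.892 and 0.481 in full and 1.01, 1.35 and 0.914 in BEC. The difference was -1.96 (SE 0.25) on the log2 scale at the first step, between intermediate and early, and -3.24 (SE 0.31) at the second, between full and intermediate. BEC libraries all lay above full libraries, but the difference of 0.80 (SE 0.36) was not called. Tff2 and Tff3 stand next to each other in RefSeq, with Tff1 on the other side of Tff2. Tff1, named here after its values were seen, held 0.347 ± 0.304 CPM in early, 0.113 ± 0.0921 in intermediate, 0.0425 ± 0.0737 in full (3 counts in all) and 0.574 ± 0.205 CPM in BEC (SD, n = 3).

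Dmbt1 had 1 count over the early libraries and 0 in the intermediate libraries. Full libraries held 9.79, 14.7 and 5.99 CPM, and BEC libraries 126.5, 171.7 and 223.2 CPM. Full was at least 58.3-fold above intermediate, and BEC differed from full by 4.10 (SE 0.30) on the log2 scale. The order of the replicates within full was not that of Muc1: Dmbt1 was highest in replicate 2 and Muc1 in replicate 1.

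Pigr was highest in early cells. Early libraries held 1150, 1435 and 1287 CPM, intermediate 197, 242 and 264, full 34.5, 33.4 and 51.9, and BEC 27.3, 38.8 and 36.6. It dropped by 2.46 (SE 0.19) on the log2 scale at the first step and by 2.55 (SE 0.19) at the second. Full and BEC overlapped, and the difference of -0.22 (SE 0.18) between them was not called. It turned to 0.0103 without full replicate 3. In bulk samples, fewer cells of a type and less RNA per cell cannot be told apart, here and for every member.

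Agr2, an endoplasmic reticulum enzyme needed for mucin folding in the gut, had 7 counts in BEC replicate 2 and 0 in the other 11 libraries. That is 0.326 CPM in 1 library. Without the filter on low counts, edgeR called no difference for it in the 6 comparisons. Agr3, its neighbour and closest relative, named here after its values were seen, had 0 counts in all 12 libraries.

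Counts of called members were read from edgeR's quasi-likelihood fit over all 16210 genes tested, at a Benjamini-Hochberg adjusted p under 0.05. At the first step 4 of 8 tested members were called, Muc1 and Tff2 higher and Tff3 and Pigr lower, where 54.4% of all genes were called (28.7% higher and 25.7% lower). The libraries of the groups did not overlap for 4 members, against 58.7% of all genes. At the second step 6 of 8 were called, against 40.7% of all genes (20.8% higher and 19.8% lower), and 6 did not overlap, against 55.0%. Muc1, Muc20, Tff2 and Dmbt1 were higher in full, and Tff3 and Pigr were lower. Between BEC and full 5 of 8 were called, all higher in BEC (Muc1, Muc4, Muc20, Tff2 and Dmbt1), where 10.7% of all genes were called higher 10.6% lower and 21.3% in either direction. DESeq2 also called 5 higher and 0 lower, and at an unadjusted p under 0.05 edgeR gave 6 and 0. Libraries did not overlap for 6 members, against 39.6% of all genes. The median of the 8 log2 fold changes was 3.02 there, against 0.005 over all genes tested. The members were chosen with these contrasts in view, so nothing is read from the shares. Between BEC, which carry no hepatocyte label, and early cells, 7 of 8 members were called (5 higher, 2 lower) against 73.1% of all genes (40.0% higher and 33.0% lower), and 8 did not overlap, against 74.7%. For full against early it was 6 of 8, 4 higher and 2 lower, against 71.2% of all genes (39.1% higher and 32.1% lower), and 7 did not overlap, against 74.4%. For BEC against intermediate it was 7 of 8, 5 higher and 2 lower, against 52.4% of all genes (26.3% higher and 26.2% lower), and 7 did not overlap, against 61.0%. These comparisons share libraries with the steps. 

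**Figure D2:**
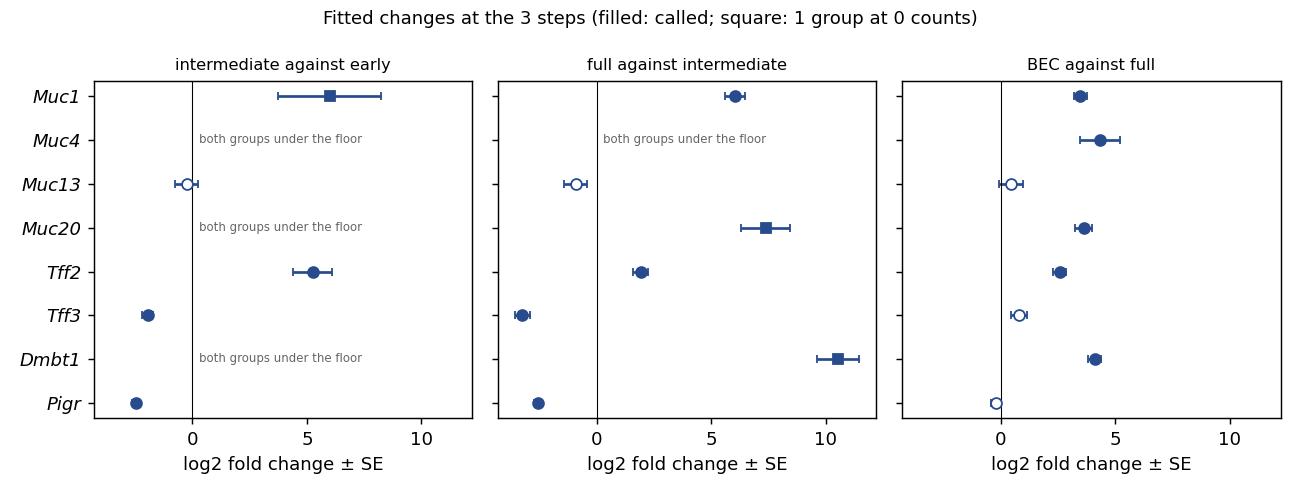
Fitted log2 fold changes of the 8 tested members with their SE at the 3 steps; filled points were called, squares are fits against a group at 0 counts whose size depends on the prior count, and pairs with both groups under the floor carry a note in place of a point. Between BEC and full, Muc1, Muc4, Muc20, Tff2 and Dmbt1 lie between 2.57 and 4.35, while Tff3, Pigr and Muc13 were not called.

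Levels of different genes were compared per kilobase of merged exons (RPKM). In early, Pigr stood at 321 ± 35.3 and Tff3 at 47.2 ± 13.8 RPKM, and Muc13 at 0.238 ± 0.0237, with the other members under the floor (SD, n = 3). Intermediate kept this order for Pigr, at 58.3 ± 8.50, and Tff3, at 12.1 ± 2.32, with Tff2 next at 2.21 ± 0.802 RPKM. In full, Muc1 (12.1 ± 4.15 RPKM), Pigr (9.92 ± 2.58) and Tff2 (8.53 ± 2.69) overlapped in their libraries and were followed by Dmbt1 (1.44 ± 0.620) and Tff3 (1.27 ± 0.465), which overlapped too. In BEC the order was Muc1 at 135 ± 31.1, Tff2 at 50.7 ± 12.1, Dmbt1 at 24.6 ± 6.86, Pigr at 8.50 ± 1.52, Muc20 at 3.47 ± 1.22 and Tff3 at 2.22 ± 0.466 RPKM. Of these neighbours in BEC, only Muc20 and Tff3 overlapped. Muc13 (0.144 ± 0.0221) and Muc4 (0.112 ± 0.0199) came next and overlapped. The early group was thus led by the immunoglobulin carrier, and BEC by a membrane mucin and the other trefoil factor.

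The full group reached different fractions of the BEC level. Its mean was 8.99% of the BEC mean for Muc1, 8.07% for Muc20, 5.85% for Dmbt1 and 16.8% for Tff2. Single full libraries ranged from 6.62% to 12.5% for Muc1, from 5.95% to 11.6% for Muc20, from 3.45% to 8.47% for Dmbt1 and from 11.9% to 22.5% for Tff2. Tff2 and Muc1 overlapped in this measure, and Tff2 and Dmbt1 did not. For comparison, Epcam in full was at 29.4% of its BEC mean, Krt19 at 19.9%, the secretin receptor Sctr at 40.2% and the chloride channel Cftr at 63.6%. In intermediate, Tff2 was at 4.36% of its BEC mean and Muc1 at 0.140%. Pigr and Tff3 were both far under their early level in the Epcam+ groups: in full, Pigr was at 3.09% of the early mean and single Tff3 libraries at 2.07% to 3.84%, and in BEC the means were at 2.65% for Pigr and 4.70% for Tff3. Muc13, also highest in early but low throughout, was at 43.9% of its early mean in full and 60.4% in BEC. 

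**Figure D3:**
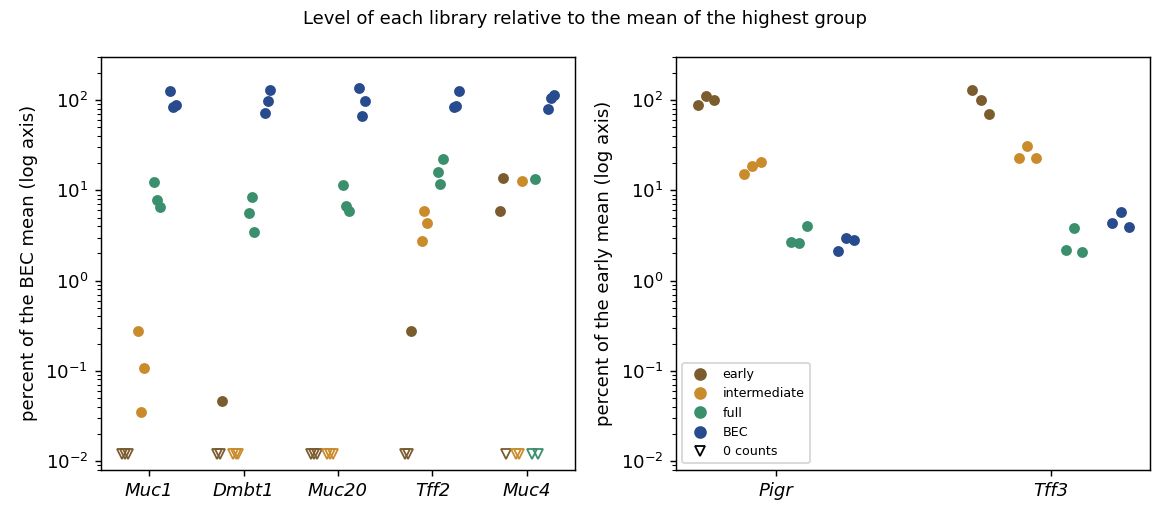
Level of each library as a percent of the mean of the highest group, on a log axis, for Muc1, Dmbt1, Muc20, Tff2 and Muc4 against BEC (left) and for Pigr and Tff3 against early (right); each point is a library and open triangles are libraries with 0 counts. Full libraries lie between 3.45% and 22.5% of the BEC mean for Muc1, Dmbt1, Muc20 and Tff2, and Pigr and Tff3 lie between 2.07% and 5.81% of the early mean in full and BEC.

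Genes with the most alike pattern were ranked by the root mean square difference of mean-centred log2 CPM over the 12 libraries, among 12126 genes with at least 5 CPM in their highest group. For Pigr they were Reep6 (0.17), the pantetheinase Vnn3 (0.19) and albumin, Alb (0.23). Tff3 was nearest to the retinoid receptor Rxrg (0.40), Ly6d (0.41) and Gm3219 (0.43). Muc20 was nearest to Eya2 (0.27), Ckmt1 (0.31) and Minar1 (0.34), and Tff2 to Mak (0.42), Atp2b4 (0.52) and Stox2 (0.54). Dmbt1 was nearest to the epithelial splicing regulator Esrp1 (0.54), the protease Ctse (0.65) and Mal (0.68). Muc1 was nearest to Lrrn1 (0.74), the potassium channel Kcnq1 (0.76) and Mal (0.77), so that Mal was near both. Muc4 was nearest to Pgm5 (0.53), Mab21l4 (0.60) and Anxa9 (0.68), and Muc13 to Slc2a8 (0.27), Mrpl52 (0.33) and Glrx (0.33). Among the members themselves the closest pair was Tff3 and Pigr, at 0.57, and next came Muc1 and Dmbt1, at 1.07. With a prior count of 0.5 in place of 2, the 3 nearest genes were all retained for Tff3 and Pigr, and between 0 and 2 of 3 for the other 6. The distance of Muc4 to its nearest gene then became 1.22.

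The rest of the mucosal programme was read from 5 lists of genes that are not members. Among the other mucins, 11 of 14 were in the table and 4 had 0 counts throughout, which were Muc5ac, the gel-forming mucin of gastric surface cells, Muc15, Mucl1 and Mucl2. Only Muc2 and Ovgp1 passed the filter (all 6 are named here after their values were seen), and neither was called by edgeR at any of the 3 steps, by DESeq2 or at an unadjusted p under 0.05. Muc2, the gel-forming mucin of intestinal goblet cells, lay between 0.105 and 0.494 CPM in group means. With total counts as the scale both were called at the first step.

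Among 26 tested genes of mucin O-glycosylation, 10 were higher and 5 lower in intermediate than in early, 17 higher and 3 lower in full than in intermediate, and 12 higher and 4 lower in BEC than in full. Of all genes tested, 28.7% were higher and 25.7% lower at the first step, 20.8% and 19.8% at the second, and 10.7% and 10.6% between BEC and full. The list medians were 0.49, 0.55 and 0.50 on the log2 scale, against 0.06, 0.01 and 0.005 over all genes tested. Fut2, the fucosyltransferase of secreted blood group sugars, had 5 counts over the intermediate libraries, a mean under the floor, and 7.24 ± 1.37 CPM in full and 62.8 ± 5.79 in BEC (SD, n = 3). The count ratio of full to intermediate was 75.2, with a 95% exact interval from 32.0 to 233 (edgeR adjusted p 5.06e-07), and BEC differed from full by 3.11 (SE 0.21, edgeR adjusted p 8.79e-07). B3gnt3, which extends core O-glycans, was at 6.35 ± 1.30 CPM in full and 51.0 ± 1.42 in BEC (3.00, SE 0.16, edgeR adjusted p 5.61e-08). Galnt18, of the family that starts O-glycans, rose at the second step (4.16, SE 0.41, edgeR adjusted p 3.05e-06). The list did not move as 1 block: the sialyltransferase St6galnac6 was lower in BEC than in full (-2.53, SE 0.15, edgeR adjusted p 9.42e-08), and Galnt15 too (-2.73, SE 0.50, edgeR adjusted p 0.00124). At the first step St3gal4 rose by 0.95 (SE 0.09, edgeR adjusted p 1.05e-06) and St3gal1 fell by 1.01 (SE 0.11, edgeR adjusted p 3.04e-06).

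Of 16 tested genes of secreted mucosal defence, 2 were higher and 6 lower at the first step, 9 higher and 5 lower at the second, and 11 higher and 0 lower between BEC and full. DESeq2 gave 11 and 0 there, and edgeR at an unadjusted p under 0.05 gave 12 and 0. Medians were -1.06, 1.33 and 1.31 on the log2 scale, against 0.06, 0.01 and 0.005 over all genes tested, of which 54.4%, 40.7% and 21.3% were called. Nos2, the inducible nitric oxide synthase, had 8 counts over the intermediate libraries, a mean under the floor, and 8.62 ± 1.03 CPM in full (SD, n = 3). Its count ratio was 55.8, with a 95% exact interval from 28.2 to 129.9 (edgeR adjusted p 3.39e-08). Sftpd, a collectin, was at 11.7 CPM in intermediate and 42.9 CPM in full, a rise of 1.87 on the log2 scale (SE 0.15, edgeR adjusted p 5.58e-07). The oxidase Duox2 was 0.583 ± 0.119 CPM in full and 7.68 ± 1.18 in BEC (3.71, SE 0.42, edgeR adjusted p 2.28e-05). Defb1, a defensin, fell from 22.8 to 2.64 CPM at the first step (-3.11, SE 0.33, edgeR adjusted p 3.00e-06), and the iron-binding Lcn2 from 905 ± 363 to 259 ± 133 CPM (-1.81, SE 0.35, edgeR adjusted p 0.000615). Lcn2 was at 551 ± 145 CPM in full and had its highest mean in BEC, at 1383 ± 317 CPM (SD, n = 3), where libraries overlapped those of early. The protease inhibitor Slpi (-2.14) and the galectin Lgals3 (-2.02) fell at the second step (edgeR adjusted p 1.73e-06 and 1.82e-06).

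Trefoil, gel and goblet cell factors were split: of 12 tested, 4 were higher and 5 lower at the first step, 3 higher and 5 lower at the second, and 6 higher and 2 lower between BEC and full, where 54.4%, 40.7% and 21.3% of all genes were called in either direction. Fcgbp, a mucus-binding glycoprotein of goblet cells, was 2.60 ± 0.360 CPM in full and 26.0 ± 1.34 in BEC (3.32, SE 0.30, edgeR adjusted p 3.15e-06). Creb3l1, a membrane-bound factor of secretory cells, was at 1.68 ± 0.243, 7.25 ± 1.98 and 34.3 ± 1.99 CPM in intermediate, full and BEC, with calls at both steps (edgeR adjusted p 2.35e-05 and 6.77e-06). Qsox1, a secreted sulfhydryl oxidase, fell at the first step (-1.35, SE 0.11, edgeR adjusted p 2.98e-07). Sytl2, which acts in vesicle docking, rose at the second (2.02, edgeR adjusted p 0.000238) and was lower in BEC than in full (-1.42, edgeR adjusted p 0.00455). Foxa3 ran the other way, from 125 ± 17.1 CPM in early through 62.3 ± 10.9 and 19.9 ± 2.46 to 10.5 ± 2.23 in BEC (SD, n = 3), called at each step. The first of these calls was lost with total counts as the scale (-0.34).

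Of 16 tested genes of polymeric immunoglobulin transport, the pathway of Pigr, 8 were higher and 3 lower at the first step, 8 higher and 0 lower at the second, and 4 higher and 1 lower between BEC and full. Of all genes tested, 28.7% were higher and 25.7% lower at the first step, 20.8% and 19.8% at the second, and 10.7% and 10.6% between BEC and full. For the 0 at the second step DESeq2 also gave 0, and edgeR at an unadjusted p under 0.05 gave 1. The endosome gene Rab11fip5 rose from 5.63 to 27.8 and then to 78.3 CPM (edgeR adjusted p 2.76e-07 and 6.43e-06). The NF-kB subunit Relb rose at the first step (1.45, SE 0.31, edgeR adjusted p 0.00136), and Irf1, an interferon-induced factor, at the second (0.59, SE 0.14, edgeR adjusted p 0.00372). Rab25, an apical recycling GTPase, was 4.93 ± 1.39 CPM in full and 47.0 ± 4.17 in BEC (3.25, SE 0.22, edgeR adjusted p 2.69e-07). Rab17, which acts in transcytosis, fell at the first step (-0.87, SE 0.19, edgeR adjusted p 0.00133), a call lost with total counts as the scale (-0.21).

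**Figure D4:**
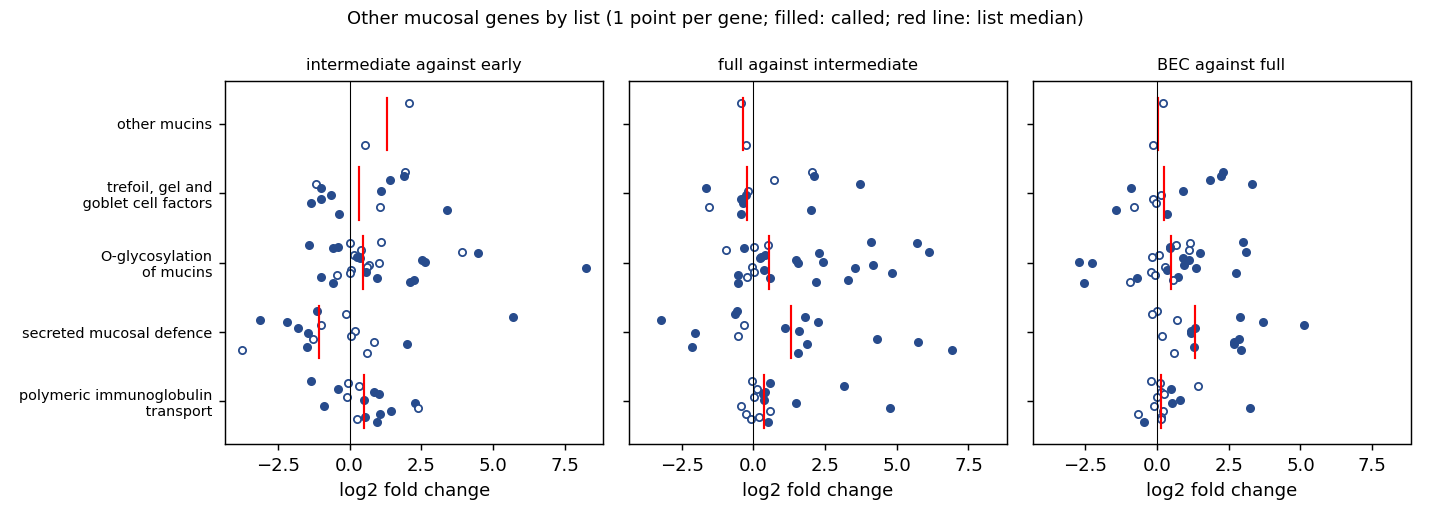
Fitted log2 fold changes of genes in 5 lists of mucosal function at the 3 steps; each point is a gene, filled where called, and the red line is the list median. The defence list has its median at -1.06 at the first step and at 1.33 and 1.31 at the next, and the glycosylation list stays near 0.5.

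Markers of cell types were read beside these results. The sum of 10 hepatocyte markers was between 102668 and 107556 CPM in early libraries, 3322 and 4379 in full and 2065 and 2740 in BEC. Pigr and Tff3 were also highest in early, but between full and BEC Pigr overlapped and Tff3 libraries lay higher in BEC. The sum of 10 biliary markers was between 967 and 1929 CPM in early, and between 11645 and 14916 in full and 14074 and 17439 in BEC, so that full and BEC overlapped in this sum. The sum of 8 B and plasma cell markers, which hold Jchain of polymeric IgA, was between 1.21 and 1.64 CPM in early, 6.78 and 23.4 in full and 21.4 and 62.2 in BEC. In BEC it was led by Igkc at 34.5 ± 16.5 and Jchain at 11.1 ± 5.16 CPM, which were at 10.9 ± 6.42 and 4.09 ± 1.77 CPM in full (SD, n = 3). Ighm was at 0 in early and 0.542 CPM in BEC, where Cd79a was at 0.157 and Mzb1 at 0.137 CPM. The sum of 8 macrophage markers was between 20.7 and 22.4 CPM in early, 63.7 and 83.2 in full and 131.5 and 142.1 in BEC, where Csf1r alone held 127 ± 6.69 CPM and Adgre1 0.522. Cd68 was at 14.0 CPM in early, 1.62 in full and 3.46 in BEC. The sum of 5 mesothelial markers was between 188 and 214 CPM in BEC and 20.4 and 30.7 in full, with Msln at 198 ± 13.2 CPM and Upk3b, Upk1b, Wt1 and Lrrn4 under 1 CPM in BEC. The sum of 7 goblet and gastrointestinal markers in the table was between 3.37 and 3.79 CPM in full and 26.1 and 28.1 in BEC, with Muc5ac at 0. In BEC nearly all of it was Fcgbp, while in full Fcgbp held 2.60 ± 0.360 CPM (SD, n = 3). The sum of 5 tuft cell markers was between 28.1 and 41.5 CPM in full and 75.3 and 110.9 in BEC, with Dclk1 at 93.3 ± 17.2, Trpm5 at 1.45, Avil at 1.07 and Pou2f3 at 0.0321 CPM in BEC. In full, Trpm5 was at 0.569 and Avil at 0.510 CPM. Neutrophil markers summed to at most 1.02 CPM and T and NK cell markers to at most 0.745 CPM in any library. Endothelial markers, between 13.9 and 20.7 CPM in early, were between 1.91 and 4.42 in full and 1.45 and 6.26 in BEC. Stellate cell and fibroblast markers, between 70.0 and 229 in early, were between 29.4 and 54.6 in full and 58.1 and 99.3 in BEC. The part of such cells in the levels of the members was not tested.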

How the data were processed

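Per the submitters' processing notes, reads were processed with STAR 2.7.10b, featureCounts 2.0.1 and DESeq2 on build GRCm39; annotation, strandedness and the treatment of reads matching several genes are not given in the sources used here. The authors deposited raw counts per gene symbol, which were used for every test, and a table of scaled values, which was not used. Group and replicate came from the sample titles. Members and lists were chosen with earlier results of these data known.

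Genes were kept by filterByExpr (16210 of 53599). All 12 libraries entered 1 edgeR 4.0.16 quasi-likelihood fit (R 4.3.3) with TMM factors and a term per group; calls use Benjamini-Hochberg adjustment across the 16210 genes with alpha 0.05, and each SE is the fold change divided by the root of its F. edgeR's common dispersion corresponds to a coefficient of variation of 14.8%. CPM use TMM-scaled library sizes, log2 CPM a prior count of 2, and RPKM the merged exon length of GENCODE M21. Floors of 3 counts per library and exact intervals reflect counting error alone and leave out the spread between libraries. They treat reads as separate molecules, which PCR copies are not. On simulated counts for full against intermediate, with 200 genes shifted by 2 on the log2 scale, 100% were recovered, and 4.76% of calls were unchanged genes (15650 genes tested).

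The genes named are all 9 members, for each of the first 3 comparisons up to 2 genes per list and direction with the largest change (called, at least 5 CPM in the higher group, no overlap of libraries), and the 3 most alike genes per member; others are marked as chosen after their values were seen or given as markers. Replicate numbers 1 to 3 recur in each group. Across genes, the deviations of libraries bearing 1 number gave r of 0.121 to 0.293 (early with intermediate), 0.137 to 0.322 (intermediate with full) and 0.170 to 0.257 (full with BEC). For the other group pairs r was 0.0960 to 0.209 (early with full), 0.0442 to 0.145 (early with BEC) and 0.0839 to 0.175 (intermediate with BEC). Libraries with different numbers were not compared, so these values do not show that the numbers pair the libraries. What the numbers stand for was not tested, and the main fit has no replicate term. Alternatives were DESeq2 1.42.0, total counts or median-of-ratios factors, 2 filters, a replicate block, fits of the 2 groups compared, and leaving out each library. Figures used matplotlib 3.10.9 under Python 3.11.15.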

Additional observations from a re-analysis of the deposited data

How the results depend on the processing

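Of 545 fitted member differences under alternatives, 535 had the same direction and the same call. Muc1 in intermediate against early lost its call without 1 of 5 libraries, which took the members called higher from 2 to between 1 and 2, and the count was also 1 when only the 2 groups compared were fitted, since fewer genes pass that filter. Muc13 changed sign with total counts in intermediate against early (0.41) and in BEC against early (0.14), and when 1 library was left out the former ranged from -0.59 to 0.10 (without intermediate replicate 2). Pigr in BEC against full ranged from -0.34 to 0.0103 (without full replicate 3). None of these was called. With total counts, St6galnac6 at the first step was 0.0873, and 2 other mucins were called there against 0; the cause was not tested. That setting put the all-gene median difference at 0.72, 0.21 and 0.006 at the 3 steps, and the share of calls that were higher from 52.8% to 85.6%, from 51.2% to 72.6% and from 50.1% to 50.3%; directions are relative to the TMM scale. For full against early the share went from 54.9% to 81.8%, for BEC against early from 54.8% to 80.3% and for BEC against intermediate from 50.1% to 66.5%. A filter at a mean count of 50 left 6 secreted defence genes called between BEC and full, against 11, as fewer were tested. The replicate block changed no member's call and gave 2 members higher and 2 lower at the first step, 4 and 2 at the second, and 5 and 0 between BEC and full. Without 1 library, the genes called in all ranged from 8123 to 8478, from 5276 to 6143 and from 2644 to 2970 at the 3 steps, and the other mucins called at the first step from 0 to 1. Depth limits what can be read of Muc4 among the EGFP+ groups, whose means lie under 3 counts per library, and of Agr2, with 7 counts in all.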
